A study of Mus musculus with 2 samples.

Results

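The alpha and beta tubulin genes of mouse liver were examined by expression array in a pool of livers given a control adenovirus (Ad-Ctrl) and a pool given a virus that the labels call miR-378 overexpression (Ad-378). The 10 genes are Tuba1a, Tuba1b, Tuba1c, Tuba4a, Tuba8, Tubb2a, Tubb2b, Tubb4b, Tubb5 and Tubb6, a set of 5 alpha and 5 beta tubulins given by name; Tuba3a, Tuba3b and Tubb4a, also measured on both arrays, are not among them. They were found through the RefSeq transcript identifier that the files give for each probe, and they carry 12 of the 27219 probes with a gene symbol. All 12 probes were well above background on both arrays, so all 10 genes belong to the 14288 genes with a value on both.

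Both groups were male mice injected through the tail vein with 1e9 plaque forming units at 8 weeks of age, and neither strain nor genotype is given. Each group was 1 pool of livers from 5 mice on 1 array, so no value has a replicate check, no test between the groups was possible and no p-value is given. The protocols have livers taken 2 weeks after injection in both groups, whereas the description of the Ad-378 sample says 3 weeks, so that a difference in time cannot be told apart from the virus. The array probes messenger RNA, so it does not measure miR-378 itself, and an adenovirus given by vein can reach liver cells of more than a single type.

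Microtubules are hollow polymers of alpha and beta tubulin dimers, and mammals encode several closely related isotypes of each. In hepatocytes microtubules carry vesicles toward the sinusoid and the bile canaliculus, and in dividing cells they form the spindle. Isotypes differ mainly in their C-terminal tails and in the tissues that use them. New tubulin chains are folded by prefoldin, the CCT chaperonin and the tubulin cofactors, and cells adjust tubulin messenger RNA to the amount of free dimer through the protein TTC5, which recognises nascent tubulin.

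RefSeq promoter windows of assembly GRCm38.p6 were matched for 8 of the 10 genes, all except Tubb2b and Tubb6. The windows below hold the 250 bases before the annotated start. Tuba1a, Tuba1b and Tuba1c are shown because they are alpha tubulin genes of a single stretch of chromosome 15 whose differences between the pools were unlike, and Tubb4b because it has the most motif matches. Capitals mark the CCAAT box (CCAAT or ATTGG), the GC box (GGGCGG or CCGCCC), the TATA box (TATAAA or TTTATA) and the cell cycle element CHR (TTTGAA or TTCAAA). All sequences run 5′ to 3′ on the strand of the gene.
Tuba1a, chr15:98953502-98953751, minus strand: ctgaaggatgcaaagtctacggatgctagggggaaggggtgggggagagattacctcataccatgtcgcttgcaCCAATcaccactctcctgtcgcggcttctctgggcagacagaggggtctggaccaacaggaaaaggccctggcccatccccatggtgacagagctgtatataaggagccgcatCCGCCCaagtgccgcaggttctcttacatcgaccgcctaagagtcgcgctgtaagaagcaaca
Tuba1b, chr15:98934391-98934640, minus strand: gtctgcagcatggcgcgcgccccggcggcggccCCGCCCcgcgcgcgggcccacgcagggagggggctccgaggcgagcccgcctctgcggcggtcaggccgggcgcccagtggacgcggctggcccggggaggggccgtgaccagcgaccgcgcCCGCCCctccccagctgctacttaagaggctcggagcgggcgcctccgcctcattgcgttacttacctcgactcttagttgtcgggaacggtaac
Tuba1c, chr15:99029641-99029890, plus strand: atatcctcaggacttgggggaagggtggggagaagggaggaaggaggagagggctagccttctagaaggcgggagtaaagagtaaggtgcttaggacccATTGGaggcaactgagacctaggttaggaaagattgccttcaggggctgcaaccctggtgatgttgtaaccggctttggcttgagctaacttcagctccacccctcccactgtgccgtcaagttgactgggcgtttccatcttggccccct
Tubb4b, chr2:25224703-25224952, minus strand: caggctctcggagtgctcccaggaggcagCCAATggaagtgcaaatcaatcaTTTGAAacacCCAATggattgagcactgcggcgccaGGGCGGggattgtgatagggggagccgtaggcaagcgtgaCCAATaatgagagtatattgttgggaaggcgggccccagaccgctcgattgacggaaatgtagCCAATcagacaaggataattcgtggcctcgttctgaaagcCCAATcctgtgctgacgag

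The window of Tuba1b held 2 GC boxes, 0 CCAAT boxes and 75.6% G and C. The Tuba1c window held 1 CCAAT box and 0 GC boxes at 55.6% G and C, and the Tuba1a window 1 of each at 56.8%. In Tubb4b there were 5 CCAAT boxes, 1 GC box and 1 CHR match, and no 2 matches overlapped in any of the 8 windows. A CCAAT box was present in 4 of the 8 windows, a GC box in 5, a TATA box in 1 (Tubb2a) and a CHR match in 1. Of 32851 promoter windows of this length, 33.8% held a CCAAT box, 32.7% a GC box, 12.4% a TATA box and 16.0% a CHR match, both strands being searched. These matches describe letters in the sequence. Although Tuba1a, Tuba1b and Tuba1c were shown for their unlike differences, a link between the matches and the measurements was not tested.

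Of the 10 tubulin genes, Tubb6 and Tuba1b were at least 2-fold lower in the Ad-378 pool and 0 were at least 2-fold higher. Over all 14288 genes 4.51% were at least 2-fold lower and 2.83% at least 2-fold higher. Differences are Ad-378 minus Ad-Ctrl in log2 units, after each array was divided by the 75th percentile of its processed signals, and a gene with several probes takes its brightest. The tubulin median was -0.25, in a range of -1.14 to 0.69, against a median of 0.04 over all genes. Of the 10 genes 6 had a negative difference and 4 a positive one, and 46.1% of all genes were negative. At 1.5-fold 2 tubulin genes were lower and 1 was higher, beside 12.0% and 8.79% of all genes; the higher one is Tubb2b by its brighter probe, whose other probe was lower. The beta genes had a median of -0.30, with 4 of 5 negative, and the alpha genes a median of 0.21, with 2 of 5 negative. Under quantile and loess normalization the alpha median was 0.06, and with the dimmest probes the beta median was -0.53 with 5 of 5 negative.

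**Figure D1:**
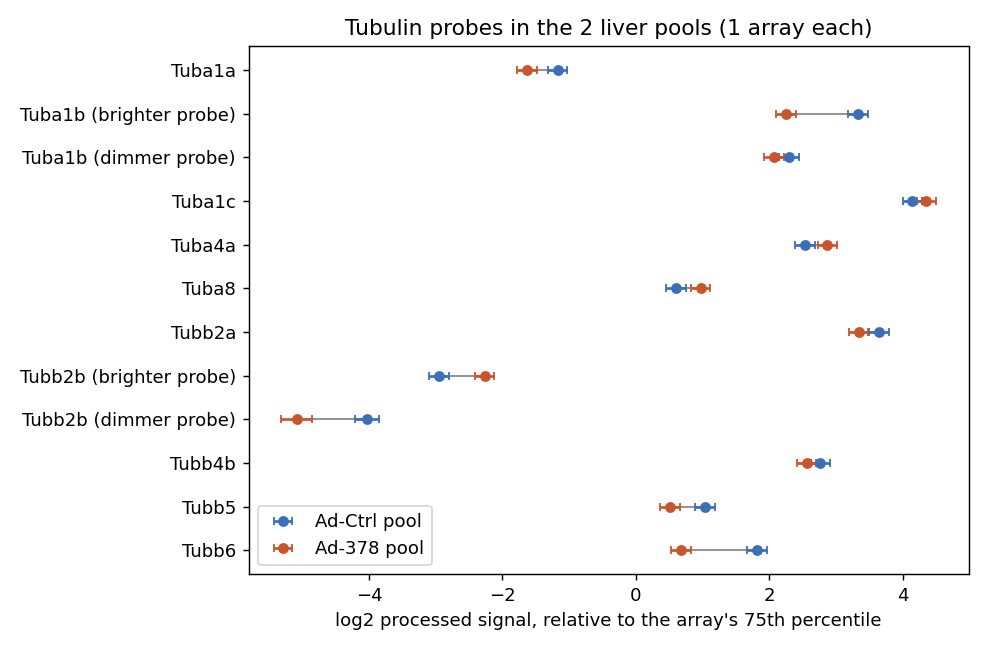
Level of each tubulin probe in the Ad-Ctrl (blue) and Ad-378 (orange) pools, on the horizontal axis as log2 processed signal relative to the 75th percentile of the array, with bars of 1 scanner error. The widest gaps to the left, toward a lower Ad-378 value, are at Tubb6, the brighter Tuba1b probe and the dimmer Tubb2b probe, and the brighter Tubb2b probe has its gap to the right. Levels of different probes cannot be compared with each other.

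Among the alpha genes, Tuba1b is the alpha isotype that dividing and non-neuronal cells use widely. Its brighter probe gave 8067 units of processed signal in the control pool and 3315 with Ad-378, with scanner errors of 807 and 332. The scaled difference was -1.08 ± 0.20 (scanner error, 1 array per group), a level 2.11-fold lower in Ad-378. Its other probe gave 3937 and 2927, a difference of -0.22 ± 0.20, so the probes had the same sign and a gap of 0.86 log2 units. Among 3419 genes with 2 or more probes above background on both arrays the median gap was 0.19, and 6.03% had a gap at least as wide as that of Tuba1b. With the mean over both probes the difference was -0.65, which is not 2-fold.

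Tuba1a, the alpha isotype best known from developing neurons, gave 356 in the control pool and 225 in the Ad-378 pool. Its difference of -0.46 ± 0.21 was negative under every setting, from -0.50 to -0.34. Tuba1c, another alpha isotype of many tissues, gave 14185 and 14223, nearly equal before scaling, and a difference of 0.21 ± 0.20. That value was 0.06 under quantile and under loess normalization, so it lay within the scanner error.

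The remaining alpha genes had positive differences of similar size. Tuba4a, which encodes an alpha tubulin made without the C-terminal tyrosine, had signals of 4653 and 5091 and a difference of 0.33 ± 0.20. Tuba8, among the most divergent of the alpha isotypes, had signals of 1217 and 1367 and a difference of 0.37 ± 0.20. Both values were positive under all 9 settings, at 0.23 to 0.35 for Tuba4a and 0.33 to 0.37 for Tuba8, and both stayed within the 95% range of the scanner error around 0.

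Among the beta genes, Tubb6 had the lowest difference of the 10 tubulin genes. Its product is a broadly expressed beta isotype linked to less stable microtubules. Its probe gave 2820 in the control pool and 1113 in the Ad-378 pool, with scanner errors of 282 and 111. The difference was -1.14 ± 0.20, or 2.20-fold lower in Ad-378, and 492 of the 14288 genes (3.44% with a lower value than Tubb6) lay at or below it. Tubb6 was at least 2-fold lower under all 9 settings, from -1.19 to -1.08. It has 1 probe, so no other probe can check it.

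Tubb5, the beta isotype most widely used in dividing cells, gave 1645 in the control pool and 992 in the Ad-378 pool. Its difference was -0.53 ± 0.20, between -0.57 and -0.50 over the settings, and 13.9% of all genes had a lower value. Tubb2a gave 10026 and 7061, a difference of -0.30 ± 0.20. Tubb4b, which is also used in cilia, gave 5451 and 4116, a difference of -0.20 ± 0.20. Tubb2a and Tubb4b were negative under all 9 settings, yet both lay within the 95% range of the scanner error around 0.

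Tubb2b, a beta isotype of neurons and of neuronal migration, had probes of opposite sign. The brighter one gave 103 in the control pool and 144 in the Ad-378 pool, a difference of 0.69 ± 0.21. The dimmer one had 49.2 and 20.6, a difference of -1.06 ± 0.29. The gap of 1.74 log2 units was reached by 0.614% of the 3419 genes with several probes, while 27.1% of them had probes of opposite sign. On the series matrix values, which have no background subtraction, the dimmer probe had -0.35 and the brighter one 0.50. No direction is given for Tubb2b.

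**Figure D2:**
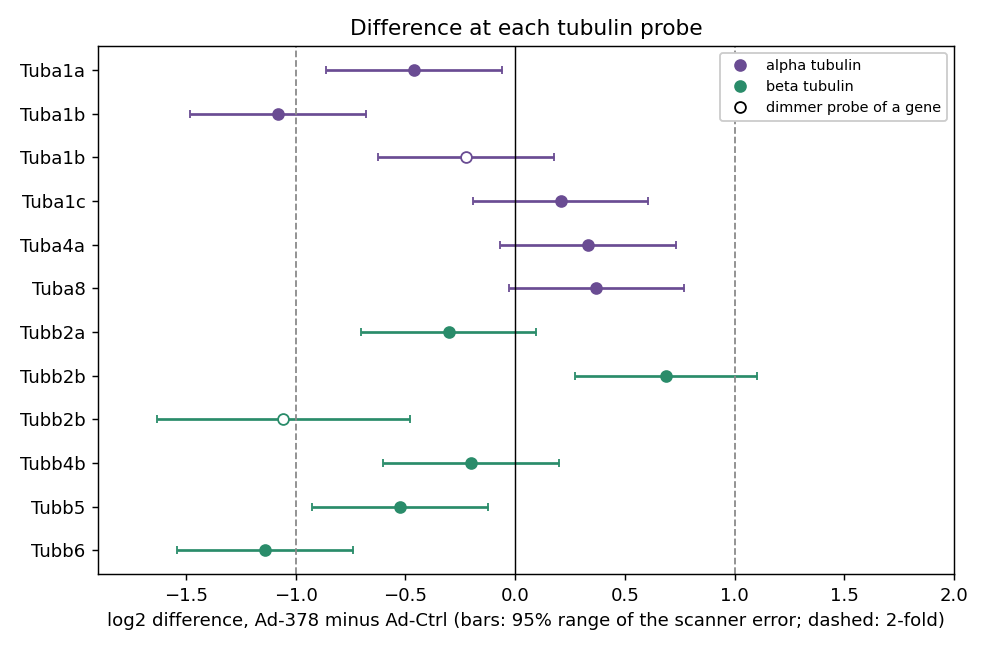
Log2 difference at each of the 12 tubulin probes, with bars of the 95% range of the scanner error and dashed lines at 2-fold. Tubb6 (-1.14) and the brighter Tuba1b probe (-1.08) lie past the lower line and their bars reach back across it, and the Tubb2b probes (0.69 and -1.06) lie on opposite sides of 0.

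The scanner error covers measurement on the array and not the spread between mice or pools. For bright genes it was nearly constant, at 0.204 log2 units for Tuba1c and Tubb6 and at the median over all genes. Its 95% range is therefore close to a fixed threshold for such genes. By its 95% range 4 tubulin genes were lower beyond error (Tubb6, Tuba1b, Tubb5 and Tuba1a), Tuba1b by its brighter probe alone. Tubb2b was higher beyond error at its brighter probe and lower beyond error at the other, so it counts in neither direction. Of all genes 17.7% were lower and 16.3% higher by that measure. Tubulin isotypes are closely related and the probe sequences are not used here, so signal shared between isotypes was not tested. Tubb2a-ps2, which the RefSeq table lists under a symbol derived from Tubb2a, had a difference of -0.28 beside the -0.30 of Tubb2a.

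**Figure D3:**
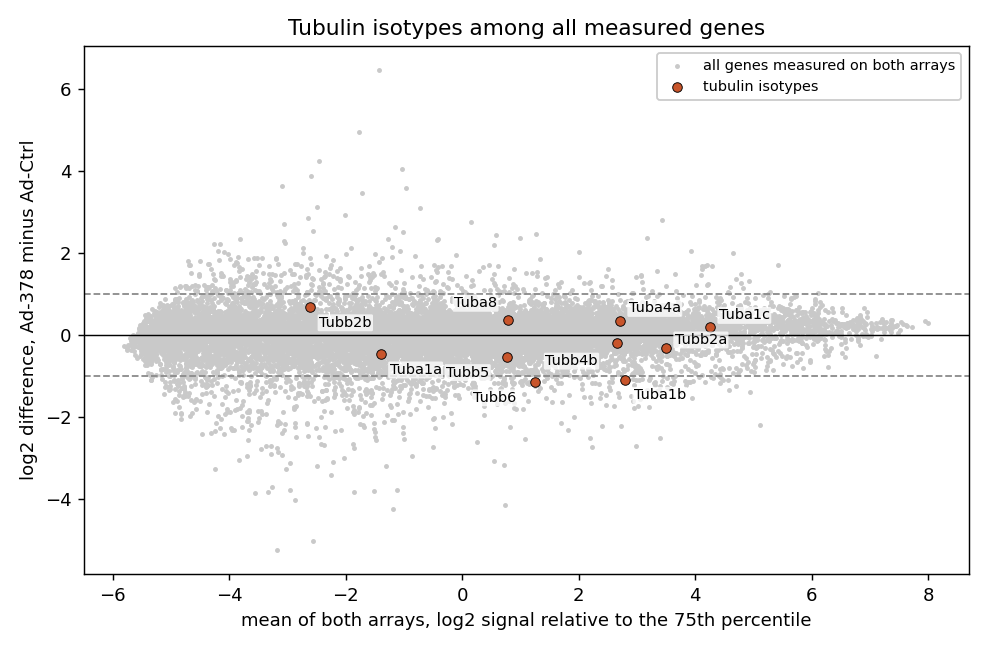
Log2 difference (vertical axis) against the mean log2 signal of both arrays (horizontal axis) for 14288 genes in grey and the 10 tubulin genes in orange, with dashed lines at 2-fold. Tubb6 and Tuba1b lie just past the lower line, where 4.51% of all genes lie, and the other 8 lie between the lines.

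Of the 10 further tubulin genes on the array, 7 were measured on both arrays, and 0 of these were at least 2-fold lower or higher. Their median difference was -0.04, and its sign turned between settings (-0.10 to 0.10). Tubb4a, a beta isotype of brain, had signals of 159 and 100 and a difference of -0.46. Tuba3a, an alpha isotype of testis, was dim at 22.3 and 24.4, with a difference of 0.33. Tube1, the epsilon tubulin of centrioles, had -0.14, which turned to 0.10 after normexp background correction. Tubg1, the gamma tubulin that seeds microtubules, had 1033 and 839 and a difference of -0.10. The neuronal Tubb3 passed the background flag with Ad-378 alone, at a signal of 14.8, and the platelet isotype Tubb1 and Tubal3 on neither array.

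The genes that fold tubulin gave no 2-fold difference. The CCT chaperonin, the ring that folds tubulin and actin, had 7 of 8 subunits positive with a median of 0.09, led by Tcp1 (0.32), Cct2 (0.26) and Cct7 (0.15). Under quantile normalization 4 of the 8 were positive and under loess 3, where the median was -0.03. Of all genes 46.1% were negative in the main setting, 50.6% under quantile and 52.6% under loess. Prefoldin, which hands nascent chains to CCT, had 5 of 6 subunits positive with a median of 0.29, which stayed between 0.25 and 0.31 over the settings. Pfdn6 had 0.61, Pfdn2 0.49 and Vbp1 -0.43. The cofactors that assemble the dimer had 4 of 6 positive and a median of 0.08, with Tbcc at 0.51, Tbcd at -0.35 and the small GTPase gene Arl2 at 0.27. That median was -0.00 under loess.

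Ttc5, the reader of nascent tubulin, had signals of 256 and 261 at its brighter probe, a difference of 0.23 ± 0.21. Its dimmer probe, well above background with Ad-Ctrl alone, had 18.1 and 12.8, a difference of -0.29 ± 0.45. With the subunits of the CCR4-NOT deadenylase, through which tubulin messages are degraded, Ttc5 made a list of 10 genes, of which 8 were positive. Their median was 0.20, and 0.01 with the dimmest probes, and 0 were 2-fold apart. The dim Cnot3 (0.57, but 0.29 after normexp), Cnot6 (0.41) and Cnot11 (0.32) had the largest differences. Cnot11 turned sign over the settings, from -0.17 to 0.34.

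Tubulin-modifying enzymes add or remove tyrosine, glutamate, glycine or acetyl groups. Of 14 measured, 10 were positive, the median was 0.15 and 0 were 2-fold apart. The tyrosine carboxypeptidase gene Vash1 had 0.72, the acetyltransferase gene Atat1 0.48, and Ttll12, of the tubulin ligase family, -0.75. Vash1 lay between 0.29 and 0.72 over the settings.

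Some of the genes that bind, sever or move along microtubules had wider differences. Of 17 microtubule-associated proteins 11 were negative, with a median of -0.31 that lay between -0.35 and -0.06 over the settings, and 0 were 2-fold apart. Map4, the main such protein outside neurons, had -0.85, Map7, which recruits kinesin, 0.82, and the dim Clip2 -0.70 (-0.19 after normexp). The 10 destabilising and severing genes had a median of 0.16 (-0.09 to 0.22 over the settings). Of them 3 were at least 2-fold lower in Ad-378, beside 4.51% of all genes. They were Fignl1, an AAA ATPase related to fidgetin (-2.68), Stmn1, which sequesters tubulin dimers (-1.99), and Kif2c, a depolymerising mitotic kinesin (-1.69). Kif2c was dim and had -0.48 after normexp, inside 2-fold. Among 16 motor genes the median was -0.02 (-0.08 to 0.02 over the settings). The neuronal kinesin gene Kif5a alone was at least 2-fold higher (1.88), beside 2.83% of all genes. Kif5a was dim with Ad-Ctrl and had 1.08 after normexp, where 1.36% of all genes were at least 2-fold higher. Kif5c (-0.90, but -0.12 after normexp) and Kif16b (-0.70) came next in size. In the gamma-tubulin ring complex and its attachment factors 9 of 10 genes were negative, with a median of -0.27 (-0.32 to -0.12 over the settings) and 0 at 2-fold, led by Cdk5rap2 (-0.61), Nedd1 (-0.58) and Tubgcp5 (-0.53, but -0.15 after normexp).

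**Figure D4:**
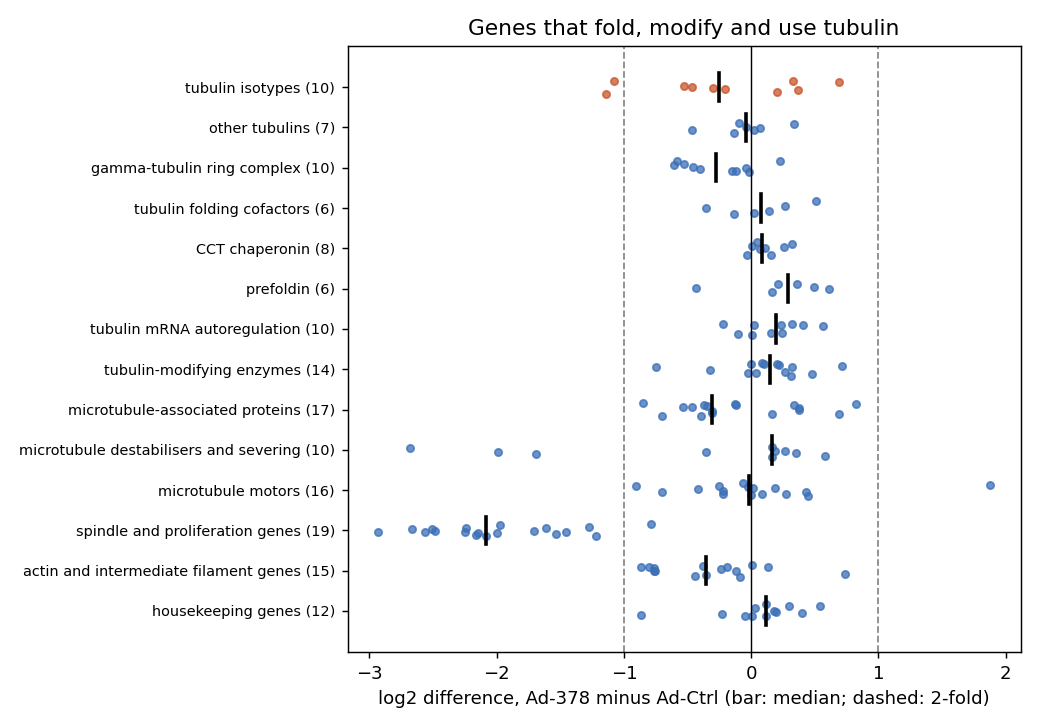
Log2 difference of each measured gene (points) and the median (bar) for the tubulin isotypes and 13 lists of genes related to them, with the number of genes measured in brackets and dashed lines at 2-fold. The tubulin isotypes spread from -1.14 to 0.69 around a median of -0.25, whereas the spindle and proliferation genes have a median of -2.09 and the CCT chaperonin one of 0.09.

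Spindle and proliferation genes were lower in the Ad-378 pool. Of 19 measured, 18 were at least 2-fold lower, beside 4.51% of all genes, and the median was -2.09. After normexp 14 were, beside 2.39% of all genes, with a median of -1.38. Cdc20, an activator of the anaphase-promoting complex, had -2.93, the spindle kinase gene Aurka -2.66 and Cdk1 -2.56. The summed signal of these 19 genes, in units of the 75th percentile of each array, was 27.6 with Ad-Ctrl and 7.55 with Ad-378. Such sums, here and for the markers below, follow the brightest probes most. Aurkb was well above background on neither array. The part of these genes' source in the tubulin values was not tested, and in a bulk pool fewer cells of a type and less RNA per cell cannot be told apart.

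Other cytoskeletal genes were also mostly lower. Of 15 actin and intermediate filament genes 12 were negative, beside 46.1% of all genes, and 0 were 2-fold apart. Under quantile and loess normalization 13 were negative, beside 50.6% and 52.6% of all genes. The median was -0.36 and lay between -0.40 and -0.21 over the settings. Pfn1 was positive at 0.74 (0.65 to 0.75 over the settings). The actin-binding gene Tagln2 had -0.86 (-0.95 to -0.39 over the settings), Acta2, the smooth muscle actin gene of activated stellate cells, -0.80, and Krt8, a keratin gene of hepatocytes and bile ducts, -0.76. Housekeeping genes had a median of 0.12 that turned to -0.04 (quantile) and -0.06 (loess), with Gusb at -0.86 and Pgk1 at 0.54.

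The tissue label was checked with cell type markers. All 10 hepatocyte markers were measured, with a median of 0.20 (-0.01 under loess) and a summed signal of 1421 (Ad-Ctrl) and 1622 (Ad-378), and Apoa2 (0.35) and Ahsg (0.28) had the largest differences. Markers of other liver cells, which also contain tubulin, were in part lower too. Of all genes 4.51% were at least 2-fold lower (5.02% under loess, 2.39% after normexp). Of 9 stellate cell and fibroblast markers 9 were negative and 5 at least 2-fold lower (median -1.06, summed signal 78.5 and 39.5). Col3a1 had -2.71 and Col1a1 -2.22, whereas Dcn had -0.20 and Lrat -0.01. Lrat turned to 0.05 after normexp, where 8 of 9 were negative and 4 at least 2-fold lower. Des was above background on neither array. Of 9 Kupffer cell and macrophage markers 8 were negative and 2 at least 2-fold lower (median -0.88, summed signal 100.5 and 53.1), namely Cd5l (-1.12) and Adgre1 (-1.04). Their median lay between -0.92 and -0.72 over the settings. Under loess 4 were at least 2-fold lower, and after normexp 2 were, with 7 of 9 negative. Itgam was positive at 0.89, and Csf1r, at -0.88, turned sign over the settings (-1.04 to 0.36). T and NK cell markers had 4 of 7 negative and 3 at least 2-fold lower (median -0.41, summed signal 8.85 and 7.44), with Gzma at -1.33 and Gzmb at -1.25. Their median lay between -0.97 with the dimmest probes and -0.22 after normexp, where 2 were 2-fold lower. Positive values were those of Il7r (0.15), Cd3e (0.02) and Nkg7 (0.02), of which Nkg7 reached -0.97 over the settings. Sinusoidal endothelial markers had 7 of 8 negative, 0 at 2-fold and a median of -0.23 (summed signal 53.1 and 44.4), with Lyve1 at -0.74 and Pecam1 at -0.34.

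Cholangiocyte and B cell markers were mostly higher. Of all genes 2.83% were at least 2-fold higher (1.36% after normexp). Of 6 cholangiocyte markers 5 were positive and 2 at least 2-fold higher (median 0.67, summed signal 3.60 and 8.32), Cftr (1.75) and Spp1 (1.30). The duct keratin gene Krt19 was negative at -0.36, between -0.45 and -0.06 over the settings, and Krt7 was not above background. Of 5 B and plasma cell markers 5 were positive and 2 at least 2-fold higher (median 0.57, summed signal 0.592 and 1.12), Jchain (1.47) and Ms4a1 (1.17), with Cd79a not above background. Of 8 neuronal and neuroendocrine markers 3 were measured, Elavl4 (-1.44), Snap25 (1.31) and Syp (0.44), with summed signals of 4.54 and 5.35. After normexp Cftr (0.85), Ms4a1 (0.46) and Snap25 (0.86) lay inside 2-fold. Stmn2, Nefl, Nefm and Uchl1 were well above background on neither array, and Chga passed the flag with Ad-378 alone. The part of any of these cell types in the tubulin values was not tested.

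**Figure D5:**
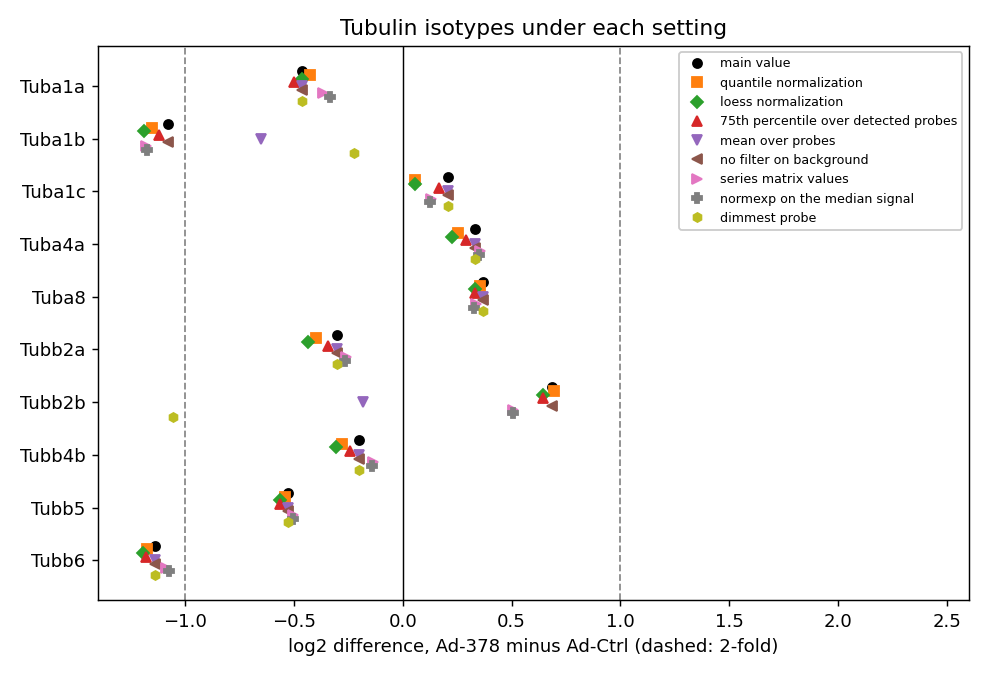
Log2 difference of each tubulin gene under the main setting (black) and 8 alternatives, with dashed lines at 2-fold. Of the 10 genes 6 stay below 0 and 3 above 0 under all 9 settings, Tubb6 stays past the lower line, Tuba1b moves to -0.65 and -0.22 where its dimmer probe counts, and Tubb2b moves from 0.69 to -1.06 with the probe.

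Across the 9 settings 6 tubulin genes were negative throughout (Tuba1a, Tuba1b, Tubb2a, Tubb4b, Tubb5 and Tubb6) and 3 positive throughout (Tuba1c, Tuba4a and Tuba8). The mean over probes and the dimmest probe cannot change the 8 genes with 1 probe. Dropping the background filter cannot change any of the 10. With the dimmest probe in place of the brightest 2 genes were again at least 2-fold lower, but these were Tubb6 and Tubb2b, beside 4.45% of all genes. Tubb6 was at least 2-fold lower under all 9 settings, Tuba1b under 7 and Tubb2b under 1, while the share of all genes at least 2-fold lower ran from 2.39% to 5.64%.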

How the data were processed

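Pooled liver RNA was measured on Agilent 1-colour (Cy3) arrays, 1 per group. The deposited processed signal and its error are spot intensities, per the file headers background-subtracted and detrended within the array by Feature Extraction 11.0.1.1; the submitters' processing notes name version 9.1. Other deposited values of 0 or 1 flag background, saturation and outliers. The deposited series matrix holds intensities equal to the raw median signal in 100% of values. Per the labels' protocols, RNA came from a kit for blood with globin removal.

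Control spots and outlier spots (123 gene spots per array) were left out, and 0 spots were saturated. Of 43020 gene spots, 63.1% (Ad-Ctrl) and 65.7% (Ad-378) were well above background. Values are log2 processed signal minus the 75th percentile over probes (a signal of 800 in Ad-Ctrl, 695 in Ad-378). Symbols came from RefSeq transcripts of GRCm38.p6, matched without versions; the headers name build mm9. A gene takes the brightest of its probes that both arrays flag as well above background. The scanner error combines the deposited errors of both spots. The number of arrays limits the precision.

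Some genes (Tubg1, Tubb1, Tubb3, Tubal3, Tubb2a-ps2, Krt19, Dcn, Lrat, markers not above background and Syp) were named after their values were seen. Itgam, Csf1r, Cd3e, Nkg7, Il7r and Pfn1 were also named in this way. All 10 tubulins, the 3 genes with the largest differences of each of 13 lists, Ttc5, and the 2 largest of each of 8 marker lists were named by rule. A gene that this rule names is not reported here. Members and lists were chosen with earlier results of these data known. Alternatives were quantile and loess (span 0.3) normalization, the percentile over detected probes, the mean over probes, no background filter, series matrix values, normexp (offset 50) on the median signal, and 1.5-fold and 3-fold thresholds. The steps were tested on simulated data. Python 3.11.15, numpy 2.4.6, pandas 2.3.3, statsmodels 0.14.6, R 4.3.3 and limma 3.58.1 were used.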

Additional observations from a re-analysis of the deposited data

How the results depend on the processing

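No paired analysis was possible because there was only 1 pool on 1 array in either group. The dimmest probe was added as a setting after seeing the data. For normexp, spots with a marked local background (137 in Ad-Ctrl, 290 in Ad-378) took the median background of the array, since a spot with a local background of 6305 shifted the fit. The tubulin median was -0.37 under loess. Tubulin genes at least 2-fold lower numbered 1 with the mean over probes and 0 at 3-fold, and 1 was higher at 1.5-fold. Over all genes, those at least 2-fold lower and higher numbered 1164 and 1059 with no filter on background, where more genes enter, 394 and 222 on the series matrix values and, with normexp, 342 and 194. The cause of the last 2 shifts was not tested. The 1.5-fold threshold gave 1721 and 1256, and the 3-fold threshold 201 and 106. Of 80 tubulin values under the alternatives 76 moved by less than the scanner error and 4 by more. The 4 were Tuba1b and Tubb2b with the mean over probes and with the dimmest probe. These settings cannot move the 8 genes with 1 probe, and dropping the background filter cannot move any of the 10. Part of the 76 was therefore fixed beforehand. Of 168 list medians 138 moved by under 0.1 and 30 by more.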
